A study of Homo sapiens with 28 samples.

Results

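The p53 dependence of the response to medium from etoposide-treated cells was measured in transcripts of U2OS, a human osteosarcoma cell line. For each gene the etoposide medium effect (etoposide medium minus DMSO medium, log2) was taken with p53 KO donors and with p53 WT donors, and the WT effect was subtracted from the KO effect. The result is called the interaction here, and it is positive where the effect was higher with KO donors. Genes with a mean count of 20 or more over the 10 RNA libraries were included, which was 13638 of the 25807 gene symbols listed.

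All recipients were U2OS cells with p53 WT, grown for 8 h in medium that other cells had conditioned. The 4 conditioned media came from p53 KO U2OS donors given etoposide, p53 KO donors given DMSO, p53 WT donors given etoposide and p53 WT donors given DMSO. Etoposide was used at 31.6 µM, and DMSO is the solvent control. The remaining group, T0, held recipients taken before the medium was added. Each of the 5 groups had 2 libraries, lettered A and B. The labels do not say whether the drug was removed from the medium before it was passed on, how the KO line was made or how many clones it came from. Whether the A and B libraries came from separate cultures is not stated, so the p-values measure only the spread between these libraries, which may be technical.

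Etoposide traps topoisomerase II on DNA and so causes strand breaks. Such breaks activate p53, a transcription factor that induces cell cycle arrest and apoptosis genes such as CDKN1A and BBC3. Damaged cells also secrete cytokines, growth factors and proteases, known as the senescence-associated secretory phenotype when it persists. p53 is known to restrain part of this secretion, and NF-kB and AP-1 transcription factors to drive it. Recipient cells read secreted ligands through surface receptors such as EGFR, and early response genes such as FOS and EGR1 are among the first to be transcribed.

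Total counts ranged from 16.8 M to 20.3 M per library. The defining markers of a mesenchymal, bone-lineage line were present, with VIM at 2011 to 2534 counts per M counts of the library (CPM), COL1A1 at 7047 to 10129 CPM, SPARC at 1816 to 2223 CPM and RUNX2 at 10.4 to 55.9 CPM. COL1A2 was at most 1.27 CPM and TWIST1 had 0 counts in all 10 libraries. The 13 markers of blood, epithelium, endothelium, liver and glia summed to between 5.58 and 10.2 CPM per library. The donors' own RNA is not among these libraries, so the knockout could not be checked at its gene. The p53 KO DMSO libraries differed most from each other: the SD over genes of the log2 difference between libraries A and B was 0.303 there, against 0.190 to 0.219 in the other 4 groups.

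The etoposide medium effects with KO and WT donors were correlated across genes, and a small share of genes passed the test of a difference. A gene that did not pass is not shown to have equal effects. With KO donors 5547 genes passed the threshold (40.7% of those tested, edgeR's quasi-likelihood test with Benjamini-Hochberg adjustment at 0.05), 2784 of them higher and 2763 lower in etoposide medium. With WT donors 5194 genes passed (38.1%), 2407 higher and 2787 lower. Across genes, which are not independent replicates, the KO and WT effects had a Pearson correlation of 0.83 and a Spearman correlation of 0.71. The SD over genes was 0.56 for the KO effect, 0.52 for the WT effect and 0.32 for the interaction, whose median SE was 0.15.

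The interaction passed the threshold for 329 genes (2.41% of those tested), 228 higher with KO donors (1.67%) and 101 lower (0.741%). At an unadjusted p under 0.05 there were 2793 genes. Where libraries were scaled by their totals alone, 310 genes passed, 154 higher and 156 lower, so the excess of higher over lower genes was not seen under that scaling. Among the 228 higher genes the median interaction was 0.58, with a median KO effect of 0.40 and a median WT effect of -0.22. By the sign of the estimates, 122 of these genes had a positive KO effect and a negative WT effect, 74 had positive effects with both donors and 32 had negative effects with both. Among the 101 lower genes the median interaction was -0.58, with a median KO effect of -0.41 and a median WT effect of 0.19. By sign, 51 of them were lower with KO donors and higher with WT donors, 36 were negative with both and 14 positive with both.

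**Figure D1:**
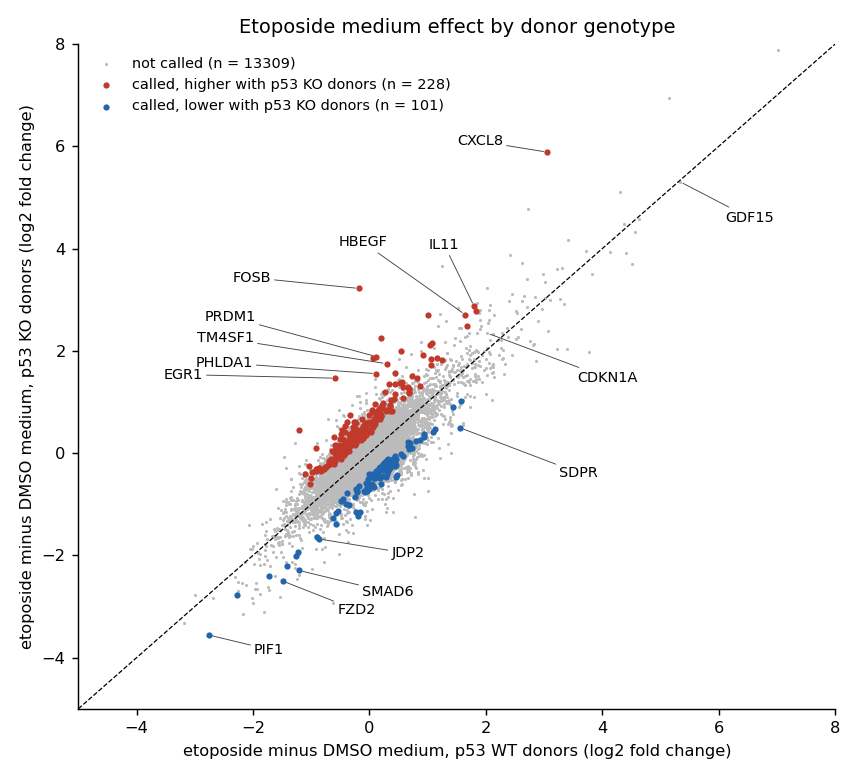
Etoposide minus DMSO medium, log2 fold change, with p53 KO donors (vertical axis) against p53 WT donors (horizontal axis) for 13638 genes; the dashed line marks equal effects, and coloured points passed the interaction test (228 higher, 101 lower). Most genes lie along the line, CXCL8 and FOSB lie far above it, GDF15 lies on it, and FZD2 and SMAD6 lie below it.

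Single libraries moved the number of genes greatly. It was 26 without WT DMSO library A, 28 without WT DMSO library B, 30 without WT etoposide library B and 31 without KO etoposide library A. It was 83 without T0 library A, 107 without T0 library B, 140 without WT etoposide library A and 257 without KO etoposide library B. Without KO DMSO library A it was 1766, and without KO DMSO library B it was 1051. The results below therefore start from the 14 genes that passed in every one of 20 settings, which include leaving out each of the 10 libraries. With both T0 libraries left out 107 passed. The calls of PTGS2, FOS, IL1R1, IL6ST, NR1D1, EDEM1, ID1, JUND, SOCS3, XPA, SDPR, RPL13, CEMP1 and EPB41L4A-AS1, described below, were then lost. Of the 14, 12 were higher with KO donors (TM4SF1, PHLDA1, ELL2, HBEGF, ERRFI1, KIAA2018, SLC41A1, MYADM, SEC24D, SPSB1, ARHGAP29 and PPP1R15A) and 2 were lower (JDP2 and FZD2). ERRFI1, KIAA2018, SLC41A1, MYADM, SEC24D, SPSB1 and ARHGAP29 fall outside the rule for named genes and were chosen after their values were seen.

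**Figure D2:**
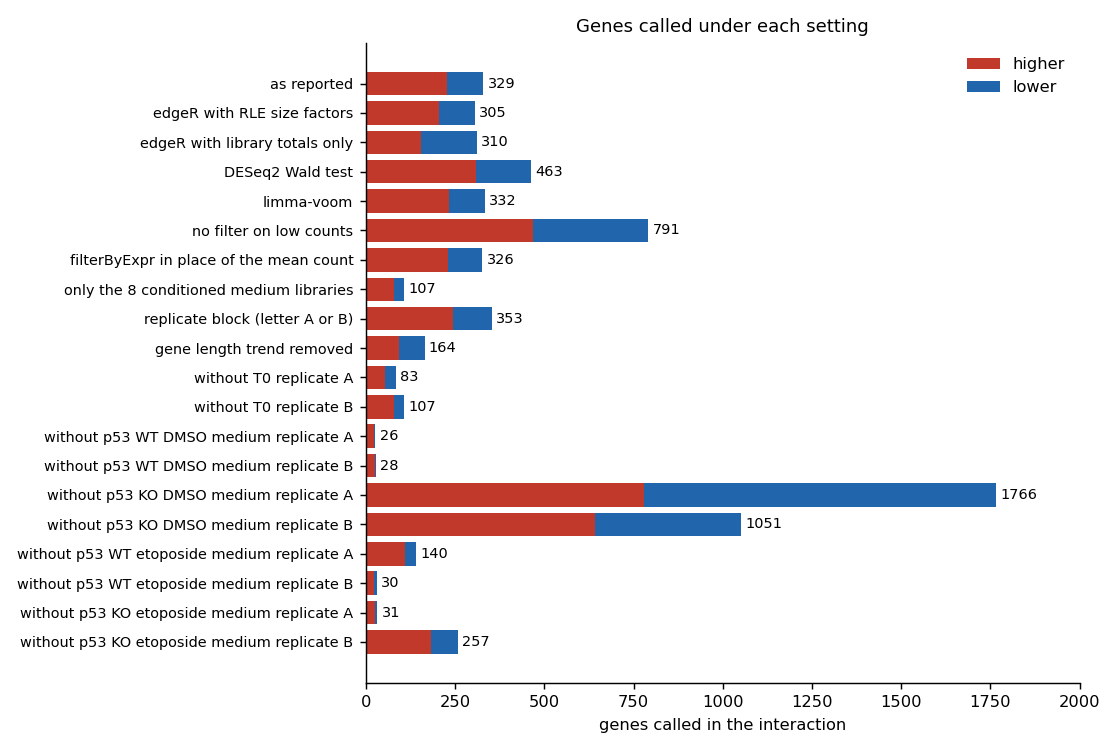
Number of genes that passed the interaction test (horizontal axis) as reported and under each other setting or left-out library (vertical axis), split into higher and lower with p53 KO donors. The count is 329 as reported and lies between 26 and 1766 when 1 library is left out.

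TM4SF1, a membrane protein of the transmembrane 4 L6 family, had the smallest p of all genes. Its level was 63.6 and 65.6 CPM in KO etoposide medium, 18.1 and 20.3 CPM in KO DMSO medium, 20.2 and 18.6 CPM in WT etoposide medium, 15.6 and 16.0 CPM in WT DMSO medium, and 46.8 and 49.0 CPM at T0. The KO etoposide libraries stood alone among the conditioned media, and the other 6 lay between 15.6 and 20.3 CPM, below T0. The KO effect was 1.75 and the WT effect 0.29, giving an interaction of 1.46 ± 0.13 (SE, here and after each ± sign; adjusted p = 5.13e-05). Over the other settings its value stayed between 1.34 and 1.55 with a largest adjusted p of 0.00348. The 250 bases before the RefSeq start of TM4SF1 (GRCh38.p14, chr3:149377650-149377899, minus strand) hold a match to the NF-kB site, 126 to 117 bases before the start and given here in capitals, and the sequence is shown because this gene led the comparison.
TM4SF1 promoter: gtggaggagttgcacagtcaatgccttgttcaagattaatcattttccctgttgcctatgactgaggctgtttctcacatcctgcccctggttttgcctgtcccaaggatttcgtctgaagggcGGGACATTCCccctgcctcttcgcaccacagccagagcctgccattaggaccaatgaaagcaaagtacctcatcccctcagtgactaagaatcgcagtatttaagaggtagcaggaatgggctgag

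HBEGF, ERRFI1 and PHLDA1, a ligand, an inhibitor and a target of EGFR and ERK signalling, were among the 14 genes called in every setting. HBEGF, an EGFR ligand shed from the cell surface, was at 178 and 186 CPM in KO etoposide medium, 25.1 and 30.6 CPM in KO DMSO medium, 79.7 and 74.7 CPM in WT etoposide medium, 24.3 and 25.2 CPM in WT DMSO medium, and 206 and 190 CPM at T0. Etoposide medium from either donor was above its DMSO medium, and the KO etoposide libraries came closest to T0 while staying below it. The KO effect was 2.71 and the WT effect 1.64, with an interaction of 1.07 ± 0.13 (adjusted p = 0.000638). ERRFI1, which encodes a feedback inhibitor of EGFR, was at 104 and 89.9 CPM in KO etoposide medium, 35.7 and 40.4 CPM in KO DMSO medium, 44.2 and 41.8 CPM in WT etoposide medium, and 36.8 and 31.6 CPM in WT DMSO medium. Its interaction was 1.02 ± 0.14 (adjusted p = 0.0016). PHLDA1, known as an ERK-induced gene, was at 88.6 and 58.8 CPM in KO etoposide medium, 25.3 and 24.9 CPM in KO DMSO medium, 21.8 and 17.7 CPM in WT etoposide medium, and 18.0 and 18.7 CPM in WT DMSO medium. The KO etoposide libraries were apart from each other and above all 6 others, with an interaction of 1.44 ± 0.21 (adjusted p = 0.00284). The WT effect on PHLDA1 was 0.11 and did not pass the test (adjusted p = 0.611).

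In the list of EGFR ligands and ERK feedback genes 3 of 16 tested members were higher (HBEGF, PHLDA1 and IER3), against 1.67% of all genes. Of the 16, 0 were lower (0.741% of all genes), and the median interaction was 0.20 against 0.00 over all genes. The ligands TGFA (0.58 ± 0.17, adjusted p = 0.0672), AREG (0.70 ± 0.54, adjusted p = 0.501) and EREG (0.62 ± 0.83, adjusted p = 0.722) had positive estimates that did not pass the test. Like some other members given without a call in the lists, AREG, EREG, DUSP1, DUSP5 and DUSP6 fall outside the rule for named genes. Of the phosphatases that close the ERK pathway, DUSP1 (0.19 ± 0.12), DUSP5 (0.20 ± 0.25) and DUSP6 (-0.03 ± 0.42) did not pass. The list median lay between 0.00 and 0.51 when 1 library was left out. IER3 lost its call without WT DMSO library A, WT DMSO library B or WT etoposide library B (adjusted p = 0.0525 to 0.0872).

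ELL2, a subunit of the super elongation complex of RNA polymerase II, moved in opposite directions by donor genotype. It was at 152 and 147 CPM in KO etoposide medium, 93.8 and 84.0 CPM in KO DMSO medium, 86.0 and 77.3 CPM in WT etoposide medium, and 98.9 and 107 CPM in WT DMSO medium. The KO effect was 0.75 (adjusted p = 9.27e-07) and the WT effect -0.34 (adjusted p = 0.00301), with an interaction of 1.09 ± 0.11 (adjusted p = 0.000176). The same pair of signs, each past the threshold, was seen for KIAA2018 (KO effect 0.60, WT effect -0.39), MYADM (0.60 and -0.27), SEC24D (0.60 and -0.24) and SPSB1 (0.50 and -0.28). ARHGAP29 had a KO effect of 0.16 that did not pass (adjusted p = 0.084) and a WT effect of -0.59 that did. SLC41A1, a magnesium transporter, was higher in etoposide medium from both donors, with a KO effect of 1.34, a WT effect of 0.43 and an interaction of 0.91 ± 0.11 (adjusted p = 0.000457).

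PPP1R15A, the stress-induced subunit that directs a phosphatase to eIF2alpha, was at 125 and 123 CPM in KO etoposide medium, 49.4 and 52.3 CPM in KO DMSO medium, 73.9 and 67.5 CPM in WT etoposide medium, 47.2 and 47.6 CPM in WT DMSO medium, and 75.5 CPM in both T0 libraries. The replicates were close together, and each etoposide medium was above its DMSO medium. The KO effect was 1.29, the WT effect 0.58 and the interaction 0.71 ± 0.10 (adjusted p = 0.0028). PPP1R15A was the only one of 17 tested members of the ATF4 and integrated stress response list called higher, and NUPR1, a stress-induced chromatin protein, was the only one called lower (-0.66 ± 0.13, adjusted p = 0.0135). Over all genes 1.67% were higher and 0.741% lower, and the list median was -0.05. The NUPR1 level was 36.0 and 39.4 CPM in KO etoposide medium, 52.7 and 49.6 CPM in KO DMSO medium, 54.3 and 64.0 CPM in WT etoposide medium, and 49.2 and 52.4 CPM in WT DMSO medium, lowest in KO etoposide medium. Its call was lost without WT DMSO library A, WT DMSO library B, WT etoposide library B or KO etoposide library A (adjusted p = 0.0661 to 0.118), and with the gene length trend removed. The window before the PPP1R15A start (GRCh38.p14, chr19:48872171-48872420, plus strand) holds a CRE, the site bound by ATF and CREB factors, 58 to 51 bases before the start and in capitals.
PPP1R15A promoter: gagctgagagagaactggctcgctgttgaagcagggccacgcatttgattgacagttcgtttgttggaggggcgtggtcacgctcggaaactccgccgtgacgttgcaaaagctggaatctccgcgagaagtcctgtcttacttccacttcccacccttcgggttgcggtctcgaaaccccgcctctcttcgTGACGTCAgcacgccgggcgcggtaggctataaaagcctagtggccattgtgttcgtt

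**Figure D3:**
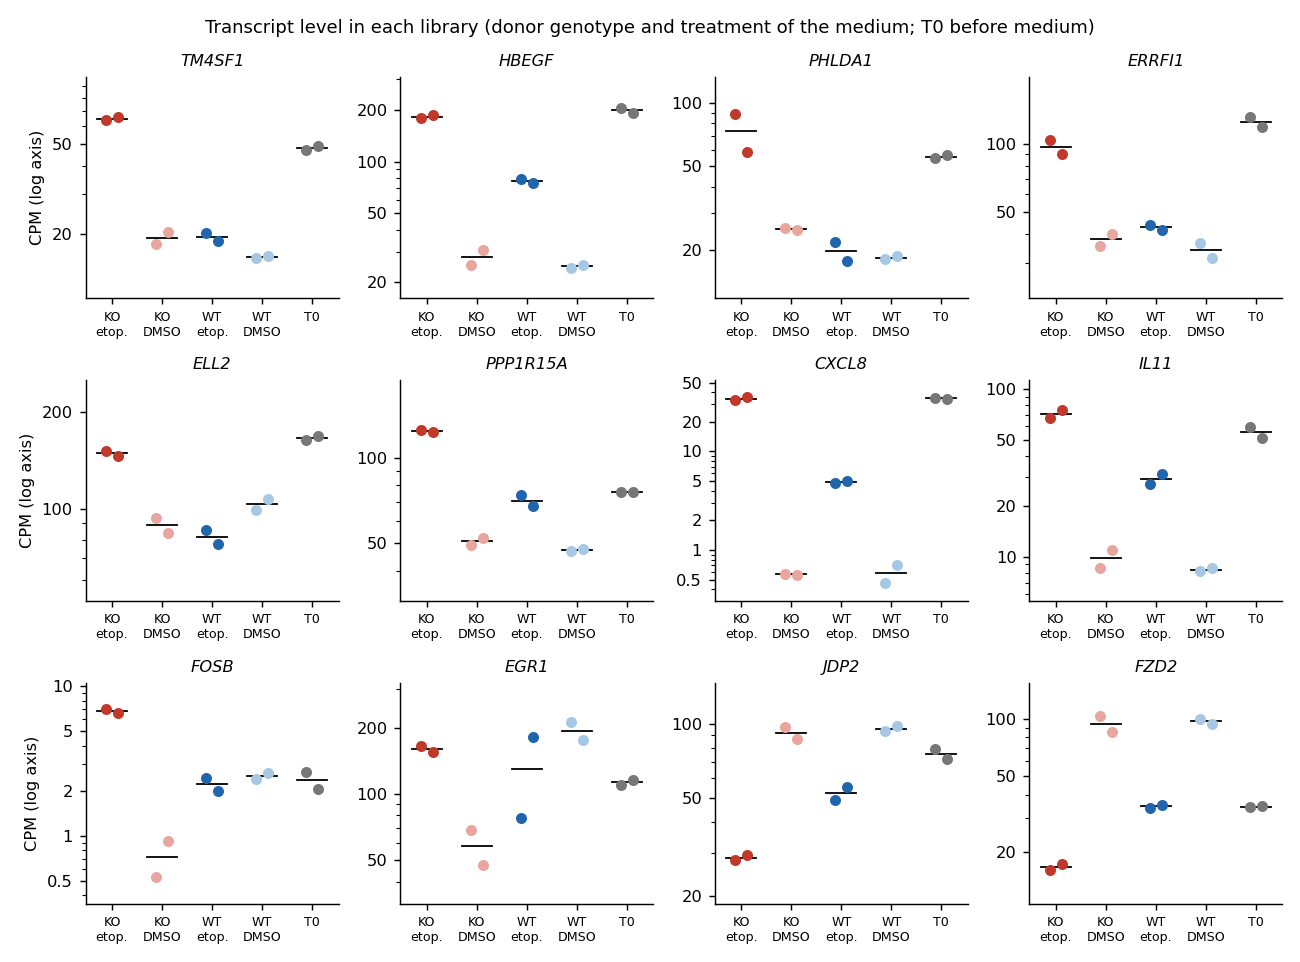
CPM on a log axis in each library (points) with the group mean (line) for 12 genes: KO etoposide, KO DMSO, WT etoposide and WT DMSO medium, then T0. TM4SF1 and PHLDA1 are high in KO etoposide medium alone among the media, HBEGF, CXCL8 and IL11 are intermediate in WT etoposide medium, FOSB is low in KO DMSO medium, and JDP2 and FZD2 are lowest in KO etoposide medium.

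Among secreted signals, CXCL8, the neutrophil chemokine also called interleukin 8, had one of the largest differences. It was at 32.9 and 35.3 CPM in KO etoposide medium, 0.578 and 0.563 CPM in KO DMSO medium, 4.76 and 5.05 CPM in WT etoposide medium, 0.46 and 0.709 CPM in WT DMSO medium, and 35 and 34.3 CPM at T0. The DMSO media were alike and low, WT etoposide medium was intermediate, and KO etoposide medium was level with T0. The DMSO levels of CXCL8 are near the floor, so the size of its fold changes rests on few reads. The KO effect was 5.89, the WT effect 3.05 and the interaction 2.83 ± 0.41 (adjusted p = 0.00227). IL11, a cytokine of the interleukin 6 family, was at 67.3 and 75.7 CPM in KO etoposide medium, 8.51 and 11.0 CPM in KO DMSO medium, 27.1 and 31.0 CPM in WT etoposide medium, 8.17 and 8.5 CPM in WT DMSO medium, and 59.5 and 51.1 CPM at T0. As for CXCL8, both DMSO media were low, WT etoposide medium was intermediate and KO etoposide medium was the highest of the media. The interaction was 1.07 ± 0.18 (adjusted p = 0.00939). The CXCL8 call was lost without WT DMSO library B (adjusted p = 0.0868), and the IL11 call without WT DMSO library A or B (adjusted p = 0.0607 to 0.0884).

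CXCL8 was the only one of 5 tested inflammatory chemokines called. CCL2, the monocyte chemokine, had an interaction of 0.42 ± 0.25 (adjusted p = 0.368), and CCL20 one of 0.31 ± 0.62 (adjusted p = 0.829). Among 10 tested interleukins, colony-stimulating factors and PTGS2, 3 were higher (IL11, LIF and PTGS2) and 0 lower. Over all genes 1.67% were higher and 0.741% lower, and the list median was 0.38. LIF, which signals through the same receptor subunit as IL11, was at 187 and 190 CPM in KO etoposide medium, 141 and 146 CPM in KO DMSO medium, 132 and 127 CPM in WT etoposide medium, 145 and 135 CPM in WT DMSO medium, and 407 and 403 CPM at T0, with an interaction of 0.50 ± 0.10 (adjusted p = 0.0132). Its KO etoposide level was above the other media and below T0. IL6, the cytokine most often linked to senescent cells, was at 1.84 and 2.75 CPM in KO etoposide medium and 1.63 and 2.10 CPM in WT etoposide medium, with an interaction of 0.09 ± 0.61 (adjusted p = 0.954). IL1A, an upstream inflammatory cytokine, was at 3.69 and 5.19 CPM in KO etoposide medium and 1.09 and 1.36 CPM in WT etoposide medium, with an interaction of 2.05 ± 0.86 (adjusted p = 0.191). The LIF call was lost without T0 library A, WT DMSO library A, WT DMSO library B, WT etoposide library B or KO etoposide library A (adjusted p = 0.0611 to 0.117). PTGS2, the inducible cyclooxygenase (1.71 ± 0.41, adjusted p = 0.0413), lost its call when any 1 library other than KO DMSO library B was left out (adjusted p = 0.0595 to 0.18), and with the length trend removed (adjusted p = 0.0677).

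AP-1 sites lie in the windows before both CXCL8 (GRCh38.p14, chr4:73740319-73740568, plus strand, 137 to 131 bases before the start) and IL11 (chr19:55370464-55370713, minus strand, 96 to 90 bases before the start). The match is in capitals in each, as TGACTCA or, read on the other strand, TGAGTCA.
CXCL8 promoter: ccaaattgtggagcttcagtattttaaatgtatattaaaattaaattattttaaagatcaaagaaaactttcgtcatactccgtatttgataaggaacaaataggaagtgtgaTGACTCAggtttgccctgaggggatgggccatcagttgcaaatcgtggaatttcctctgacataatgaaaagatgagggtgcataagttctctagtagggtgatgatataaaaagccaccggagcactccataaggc
IL11 promoter: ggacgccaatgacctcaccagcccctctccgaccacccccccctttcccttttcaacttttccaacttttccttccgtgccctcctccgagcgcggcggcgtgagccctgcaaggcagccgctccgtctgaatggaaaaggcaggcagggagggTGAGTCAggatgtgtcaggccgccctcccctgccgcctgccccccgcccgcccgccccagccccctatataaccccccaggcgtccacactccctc

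Receptors and matrix proteases showed a few calls. In the cytokine signalling feedback list, with 15 tested members and a median of 0.22, IL1R1, the interleukin 1 receptor (0.76 ± 0.18, adjusted p = 0.0404), and IL6ST, the gp130 subunit shared by IL11 and LIF receptors (0.46 ± 0.11, adjusted p = 0.0424), were higher. SOCS3, the feedback inhibitor of gp130 signalling, was lower (-0.73 ± 0.17, adjusted p = 0.0311). Over all genes 1.67% were higher and 0.741% lower. SOCS3 was at 8.52 and 7.89 CPM in KO etoposide medium, 28.2 and 22.8 CPM in KO DMSO medium, 11.9 and 13.4 CPM in WT etoposide medium, 24.0 and 23.3 CPM in WT DMSO medium, and 58.4 and 58.2 CPM at T0. Both etoposide media were below their DMSO media, with KO etoposide medium the lowest. Of 13 tested matrix protease and plasminogen genes (median 0.21), 2 were higher, against 1.67% of all genes. These were PLAUR, the urokinase receptor (0.71 ± 0.13, adjusted p = 0.0126), and MMP14, a membrane-bound metalloproteinase (0.54 ± 0.09, adjusted p = 0.00939). PLAUR was at 239 and 276 CPM in KO etoposide medium, 104 and 128 CPM in KO DMSO medium, 138 and 129 CPM in WT etoposide medium, and 101 and 95.8 CPM in WT DMSO medium, so the KO etoposide libraries were above all others. Leaving out T0 library A, T0 library B, WT DMSO library A, WT DMSO library B, WT etoposide library A, WT etoposide library B or KO etoposide library A each ended the calls of IL1R1, IL6ST and SOCS3, and leaving out KO etoposide library B ended those of IL1R1 and SOCS3 (adjusted p = 0.0505 to 0.265). With library totals IL1R1 (adjusted p = 0.0514) and IL6ST (adjusted p = 0.0627) did not pass. With the length trend removed the value of IL6ST was 0.25 (adjusted p = 0.201) and that of IL1R1 0.64 (adjusted p = 0.0882), and neither passed. PLAUR was lost without WT DMSO library A or B, WT etoposide library B or KO etoposide library B (0.0543 to 0.0989), and MMP14 without WT DMSO library A, WT etoposide library B or KO etoposide library A (0.0656 to 0.0879).

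The early response transcription factors held the highest list median. Of 16 tested members of the EGR, NR4A and other early response list, 6 were higher (EGR1, EGR2, KLF10, IER3, CSRNP1 and NR4A1), against 1.67% of all genes. In this list 0 were lower (0.741% of all genes) and 13 had a positive estimate, with a median of 0.57. The median was 0.49 to 0.62 when 1 library was left out, while the number called was 1 to 10. For EGR1, a zinc finger factor induced by serum and ERK, the levels were 166 and 156 CPM in KO etoposide medium, 69 and 47.6 CPM in KO DMSO medium, 77.9 and 181 CPM in WT etoposide medium, 213 and 175 CPM in WT DMSO medium, and 110 and 116 CPM at T0. The WT etoposide libraries disagreed with each other, and the KO DMSO libraries were the lowest. The interaction was 2.05 ± 0.34 (adjusted p = 0.00847), with a KO effect of 1.46 and a WT effect of -0.59 that did not pass (adjusted p = 0.0602). The EGR1 call was lost without WT DMSO library A or KO etoposide library A (adjusted p = 0.0724 to 0.0985), the EGR2 call without those or WT DMSO library B or WT etoposide library B (0.0582 to 0.116), and the KLF10 call without WT DMSO library B, WT etoposide library B or KO etoposide library A (0.0656 to 0.11). IER3 is described above, and CSRNP1 (0.56 ± 0.12, adjusted p = 0.0256) and NR4A1 (0.57 ± 0.13, adjusted p = 0.0302) fall outside the rule for named genes. Both CArG boxes in the window before EGR1 (GRCh38.p14, chr5:138465229-138465478, plus strand), the sites bound by serum response factor, are in capitals, at 105 to 96 and 83 to 74 bases before the start.
EGR1 promoter: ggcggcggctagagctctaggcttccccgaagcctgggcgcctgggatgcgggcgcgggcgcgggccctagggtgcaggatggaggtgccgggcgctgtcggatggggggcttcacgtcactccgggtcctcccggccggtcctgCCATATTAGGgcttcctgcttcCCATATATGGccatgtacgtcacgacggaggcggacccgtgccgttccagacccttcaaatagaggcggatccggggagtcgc

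For several of these factors the media from DMSO-treated donors already differed. KO DMSO medium was below WT DMSO medium for EGR1 (difference -1.74, adjusted p = 0.0295), EGR2 (-1.63, adjusted p = 0.0325), FOS (-1.93, adjusted p = 0.0295) and FOSB (-1.79, adjusted p = 0.0325). FOSB, an AP-1 subunit, had the largest interaction of all named genes, 3.40 ± 0.36 (adjusted p = 0.000205). It was at 7.03 and 6.59 CPM in KO etoposide medium, 0.525 and 0.921 CPM in KO DMSO medium, 2.43 and 1.98 CPM in WT etoposide medium, 2.40 and 2.63 CPM in WT DMSO medium, and 2.65 and 2.05 CPM at T0. KO etoposide medium was above and KO DMSO medium below all other libraries. The KO DMSO levels of FOSB are near the floor, so the size of its interaction rests on few reads. FOS was at 6.53 and 4.36 CPM in KO etoposide medium, 4.89 and 3.07 CPM in KO DMSO medium, 3.86 and 9.41 CPM in WT etoposide medium, 17.0 and 13.4 CPM in WT DMSO medium, and 25.2 and 29.7 CPM at T0. The KO effect on FOS was 0.46 and did not pass (adjusted p = 0.288), and its interaction of 1.68 ± 0.43 (adjusted p = 0.0489) stood beside a WT effect of -1.22. That call was lost with RLE size factors, with library totals, with the replicate block, with the length trend removed (adjusted p = 0.0665), and without T0 library A, T0 library B, WT DMSO library A, WT DMSO library B, WT etoposide library A, KO etoposide library A or KO etoposide library B (adjusted p = 0.0583 to 0.31). Over all called genes, the DMSO media differed by more than the etoposide media in 49 of the 228 higher and 26 of the 101 lower genes. The DMSO media differed between donor genotypes for 207 genes in all (1.52%; 0.711% higher and 0.807% lower with KO donors), and the etoposide media for 2082 (15.3%; 8.97% higher and 6.3% lower with KO donors).

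The AP-1 list as a whole did not share this direction: of 12 tested members 2 were higher (FOSB and FOS) and 1 lower (JUND). Over all genes 1.67% were higher and 0.741% lower, and the list median was 0.01. JUN (-0.33), FOSL1 (0.11) and ATF3 (-0.20) did not pass. JUND, a subunit that is present in resting cells, had an interaction of -0.46 ± 0.11 (adjusted p = 0.0472), and its call was lost without T0 library A, T0 library B, WT DMSO library A, WT DMSO library B, WT etoposide library B, KO etoposide library A or KO etoposide library B (adjusted p = 0.0518 to 0.22) and with the length trend removed (adjusted p = 0.096). JDP2, a repressor that dimerises with JUN proteins, was among the 2 lower genes that passed in every setting. It was at 28.0 and 29.3 CPM in KO etoposide medium, 96.9 and 86.7 CPM in KO DMSO medium, 49.2 and 55.6 CPM in WT etoposide medium, 93.3 and 97.4 CPM in WT DMSO medium, and 78.6 and 72.0 CPM at T0. Both etoposide media were below both DMSO media, with KO etoposide medium the lowest of all libraries. Its KO effect was -1.68 and the WT effect -0.87, with an interaction of -0.81 ± 0.12 (adjusted p = 0.00309).

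FZD2, a Frizzled receptor for Wnt ligands, was the other. Its levels were 16.0 and 17.2 CPM in KO etoposide medium, 103 and 85.7 CPM in KO DMSO medium, 33.8 and 35.4 CPM in WT etoposide medium, 100 and 93.6 CPM in WT DMSO medium, and 34.2 and 34.8 CPM at T0. WT etoposide medium was level with T0 and KO etoposide medium was below it. Its KO effect was -2.50, its WT effect -1.49 and the interaction -1.02 ± 0.13 (adjusted p = 0.00125). SMAD6, an inhibitor of BMP signalling that BMPs themselves induce, was at 3.94 and 4.93 CPM in KO etoposide medium, 25.3 and 18.3 CPM in KO DMSO medium, 11.2 and 11.7 CPM in WT etoposide medium, 27.4 and 25.8 CPM in WT DMSO medium, and 33.2 and 30.6 CPM at T0. Both etoposide media were below both DMSO media, KO etoposide medium was the lowest, and T0 was the highest. The interaction was -1.08 ± 0.22 (adjusted p = 0.017). SMAD6 and ID1 (-0.43 ± 0.11, adjusted p = 0.0487) were the 2 of 13 tested BMP targets and inhibitory SMADs called. Both were lower, as were 0.741% of all genes, and the list median was -0.19. ID3 (-0.25, adjusted p = 0.253) and NOG (-0.33, adjusted p = 0.187) did not pass. The SMAD6 call was lost without WT DMSO library A or B, WT etoposide library B or KO etoposide library A (adjusted p = 0.0735 to 0.167), and the ID1 call without those or either T0 library (0.0904 to 0.225). The ID1 call was also lost with another low-count filter, filterByExpr (adjusted p = 0.0502), and with the length trend removed (-0.30, adjusted p = 0.16). Among Wnt targets 0 of 8 tested members passed with edgeR, against 1.67% of all genes higher and 0.741% lower. With edgeR 0 had an unadjusted p under 0.05 (list median 0.13). Limma-voom and DESeq2 called 0, but DESeq2 gave no adjusted p for some members, RNF43, NKD1, NOTUM and LGR5 among them.

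Among the p53 target genes of the recipients, which carry p53 WT, nearly all were higher in etoposide medium with both donors. With KO donors 28 of 29 tested targets were higher in etoposide medium (median effect 1.22, 20.4% of all genes were higher), and with WT donors 29 of 29 were (median 1.34, 17.6% of all genes). The median interaction of the list was 0.03, with 0 called higher and 2 called lower (1.67% and 0.741% of all genes). Single members had interactions from -0.56 to 0.53, and 13 of the 29 had an unadjusted p under 0.05, as did 2793 of all 13638 genes. GDF15, a stress cytokine, was at 29.4 and 30.7 CPM in KO etoposide medium, 0.893 and 0.614 CPM in KO DMSO medium, 25.1 and 26.5 CPM in WT etoposide medium, and 0.715 and 0.557 CPM in WT DMSO medium. Its KO effect was 5.31 and its WT effect 5.33, with an interaction of -0.02 ± 0.32 (adjusted p = 0.985). CDKN1A, the p21 inhibitor of cyclin-dependent kinases, had a KO effect of 2.35, a WT effect of 2.01 and an interaction of 0.34 ± 0.13 (adjusted p = 0.159). MDM2 (0.21 ± 0.11, adjusted p = 0.288), FAS (0.22 ± 0.13, adjusted p = 0.356) and BBC3 (-0.39 ± 0.14, adjusted p = 0.132) did not pass either. TP53I3, a quinone oxidoreductase homologue, was at 81.0 and 79.9 CPM in KO etoposide medium, 62.5 and 61.4 CPM in KO DMSO medium, 116 and 123 CPM in WT etoposide medium, and 62.7 and 61.8 CPM in WT DMSO medium. Its interaction was -0.56 ± 0.10 (adjusted p = 0.0102). GADD45A, a DNA damage response gene, had a KO effect of 0.89, a WT effect of 1.44 and an interaction of -0.55 ± 0.11 (adjusted p = 0.0171). TP53I3 lost its call without WT DMSO library A or B or WT etoposide library B (adjusted p = 0.0607 to 0.0675), and GADD45A without those or KO etoposide library A (0.0765 to 0.125) and with the length trend removed. When 1 library was left out, 0 to 10 of the 29 targets were called and the list median was -0.06 to 0.04.

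Most NF-kB subunits and feedback targets were higher in etoposide medium from both donors. The interaction passed for 0 of 20 tested members with edgeR, against 1.67% of all genes higher and 0.741% lower. With edgeR 6 had an unadjusted p under 0.05. Limma-voom and DESeq2 called 0, but DESeq2 gave no adjusted p for some members, REL and BIRC3 among them. The list had a median KO effect of 0.97 and a median WT effect of 0.70. With each donor genotype 17 of 20 were higher (20.4% of all genes were higher with KO donors and 17.6% with WT donors). With WT donors 1 member, the subunit RELA, was lower (-0.19, adjusted p = 0.0472), and RELA was named after its value was seen. The closest to the threshold was REL, an NF-kB subunit, at 25.3 and 17.3 CPM in KO etoposide medium, 11.6 and 10.4 CPM in KO DMSO medium, 18.3 and 15.2 CPM in WT etoposide medium, and 14.5 and 16.3 CPM in WT DMSO medium. Its interaction was 0.82 ± 0.22 (adjusted p = 0.0525). TNFAIP3, the A20 feedback inhibitor, had an interaction of 0.67 ± 0.23 (adjusted p = 0.125), and NFKBIA, which encodes the inhibitor IkB alpha, one of -0.06. Leaving out 1 library gave between 0 and 6 calls in this list.

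Genes of the G2 and M phases fell with both donors and are given here beside those of DNA replication and S phase. With each donor genotype 22 of 22 tested G2 and M phase genes were lower in etoposide medium (20.3% of all genes with KO donors and 20.4% with WT donors were lower), with a median KO effect of -1.41 and a median WT effect of -1.43. Of 25 DNA replication and S phase genes, 3 were higher and 10 lower with KO donors, and 4 were higher and 4 lower with WT donors. Over all genes 20.4% were higher and 20.3% lower with KO donors, and 17.6% higher and 20.4% lower with WT donors. The interaction passed for 0 of the 22 G2 and M phase and 0 of the 25 S phase genes with edgeR. Over all genes 1.67% were higher and 0.741% lower by the interaction. The list medians were -0.10 and -0.14. At an unadjusted p under 0.05 there were 3 G2 and M phase and 5 S phase genes, and DESeq2 called 1 and 0. Fewer cells in a phase and less RNA per cell cannot be told apart in these bulk libraries. KIF20A, a kinesin of cytokinesis, was at 26.2 and 23.6 CPM in KO etoposide medium, 175 and 147 CPM in KO DMSO medium, 37.2 and 37.9 CPM in WT etoposide medium, and 180 and 177 CPM in WT DMSO medium, with an interaction of -0.44 ± 0.12 (adjusted p = 0.0643). PIF1, a DNA helicase, passed, at 6.58 and 5.71 CPM in KO etoposide medium, 71.0 and 74.1 CPM in KO DMSO medium, 10.4 and 10.7 CPM in WT etoposide medium, and 73.0 and 69.9 CPM in WT DMSO medium. Its interaction was -0.80 ± 0.14 (adjusted p = 0.00939), and the call was lost without WT DMSO library B or WT etoposide library B. All 13 tested replication-dependent histones had negative estimates (median -0.46, and -0.23 with the length trend removed). With edgeR 0 of the 13 passed (1.67% of all genes were higher and 0.741% lower), with 3 at an unadjusted p under 0.05. Limma-voom and DESeq2 called 0, but DESeq2 gave no adjusted p for some members, HIST2H2BC and HIST1H4H among them. Histone transcripts held 0.0297% to 0.0303% of counts in KO etoposide libraries, 0.0442% to 0.0478% in KO DMSO libraries, 0.0302% to 0.0318% in WT etoposide libraries and 0.0401% to 0.0424% in WT DMSO libraries.

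Other lists held few or no calls, while 1.67% of all genes were called higher and 0.741% lower. With 1 call each, NDRG1 was higher among 21 hypoxia and glycolysis genes (0.54 ± 0.10, adjusted p = 0.0109) and EDEM1, a factor of endoplasmic reticulum-associated degradation, among 15 chaperone and unfolded protein response genes (0.43 ± 0.11, adjusted p = 0.0487). SGK1, a serum- and glucocorticoid-induced kinase (0.64 ± 0.13, adjusted p = 0.021), and NR1D1, the circadian repressor REV-ERB alpha (0.64 ± 0.14, adjusted p = 0.0285), were higher among 15 glucocorticoid and circadian genes. With edgeR 0 members passed in several lists, given here with the list median and the number of members at an unadjusted p under 0.05. These were 15 interferon-stimulated genes (-0.21, 1 member), 15 heat shock genes (-0.08, 1 member), 15 NRF2 targets (0.03, 3 members), 23 cholesterol synthesis genes (0.04, 3 members) and 20 TGF-beta, SRF and YAP targets (0.07, 5 members). The same held for 13 extracellular matrix and bone lineage genes (0.10, 0 members), 6 Notch genes (0.12, 1 member), 16 mitochondrial permeability transition genes (-0.04, 2 members), 4 metallothioneins (0.02, 0 members) and 4 markers of other cell types (-0.21, 0 members). Of these lists DESeq2 called members only in that of NRF2 targets, where it called 2, and limma-voom called none. For some members DESeq2 gave no adjusted p, among them the interferon-stimulated genes IRF1, IFIT1, ISG15 and USP18. Among 394 ZNF transcripts 3 were higher and 1 lower, with a median of -0.03. NDRG1 lost its call without WT DMSO library A or B or KO etoposide library A (adjusted p = 0.0724 to 0.117). SGK1 lost its call without T0 library A or any WT or KO library other than the KO DMSO libraries (0.0505 to 0.117). NR1D1 overlaps a gene on the other strand, and the strand setting of the counts is not given, so its count is uncertain. NR1D1 lost its call without either T0 library, either WT DMSO library, WT etoposide library B or either KO etoposide library (0.0583 to 0.197). EDEM1 lost its call under 13 of 19 alternatives, including the length trend removed (0.30, adjusted p = 0.166) and 9 of the 10 left-out libraries, all but KO DMSO library A (0.0606 to 0.24).

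**Figure D4:**
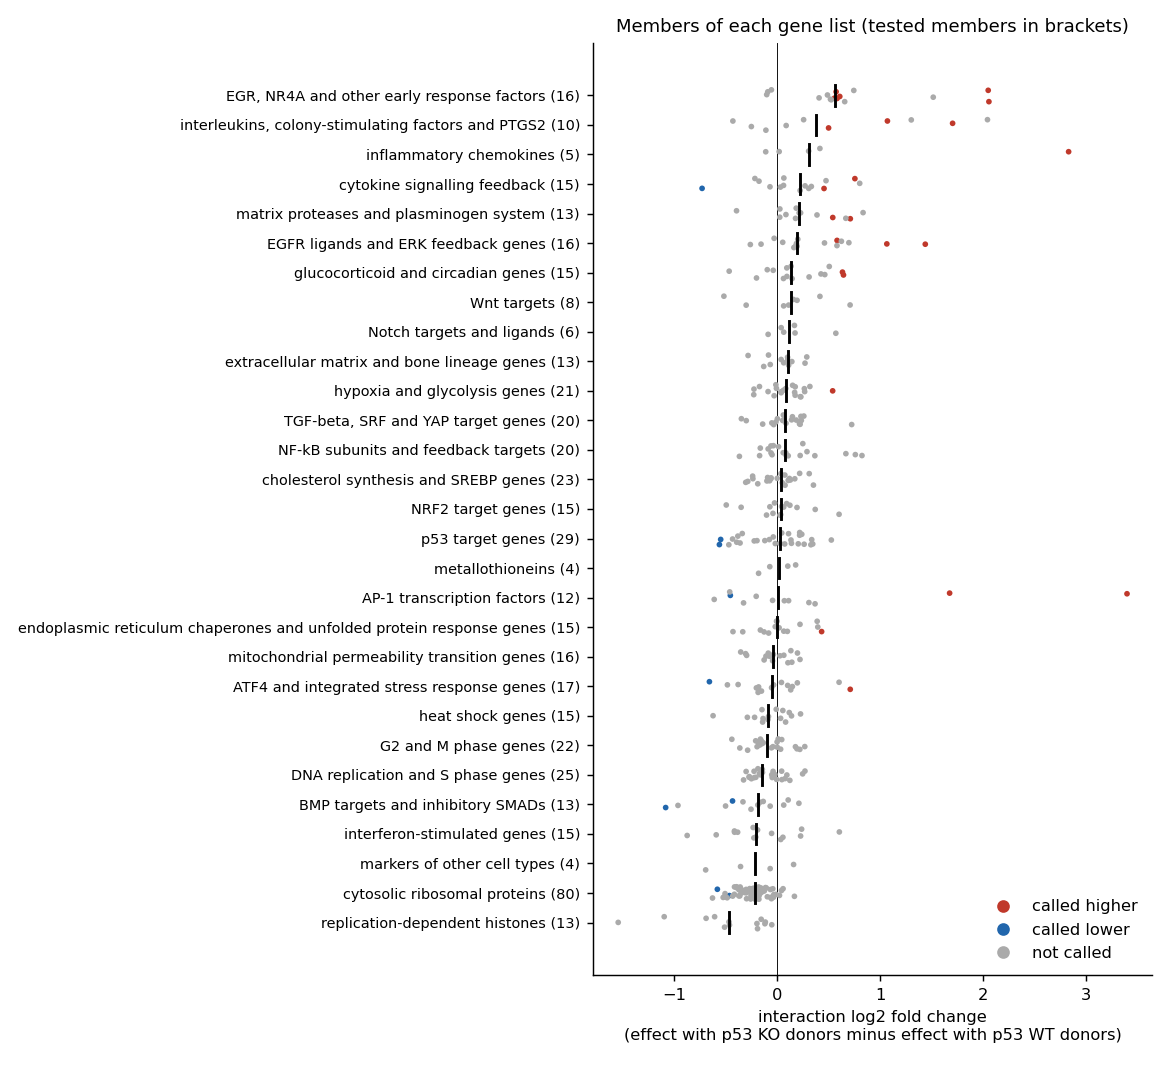
Interaction log2 fold change (horizontal axis) of each tested member of 29 gene lists (points, coloured by call), with the list median as a vertical bar. Medians run from -0.46 for histones to 0.57 for the early response factors.

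Outside the lists, other named genes with a higher effect were PRDM1, a transcriptional repressor also called BLIMP1, KIAA0040, CPEB4, a regulator of poly(A) tails, and FGD6, an exchange factor for CDC42. PRDM1 was at 12.7 and 13.3 CPM in KO etoposide medium, 3.47 and 3.53 CPM in KO DMSO medium, 4.41 and 4.08 CPM in WT etoposide medium, and 4.29 and 3.59 CPM in WT DMSO medium. The KO etoposide libraries stood alone, as for TM4SF1, and the interaction was 1.78 ± 0.23 (adjusted p = 0.0012). KIAA0040 had an interaction of 1.13 ± 0.15 (adjusted p = 0.0016). PRDM1, KIAA0040 and FOSB passed in each of 18 alternatives that gave an adjusted p, and DESeq2 gave none for them. CPEB4 (1.08 ± 0.16, adjusted p = 0.00291) lost its call without WT DMSO library A (adjusted p = 0.0504), and FGD6 (1.46 ± 0.25, adjusted p = 0.00939) without WT DMSO library A, WT etoposide library B or KO etoposide library A (0.0621 to 0.0985).

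Lower genes outside the lists included NTHL1, XPA, SYT12 and SDPR. NTHL1, a DNA glycosylase of base excision repair, was at 5.13 and 6.08 CPM in KO etoposide medium, 12.4 and 12.5 CPM in KO DMSO medium, 10.0 and 9.13 CPM in WT etoposide medium, and 11.3 and 11.0 CPM in WT DMSO medium, with an interaction of -0.93 ± 0.18 (adjusted p = 0.017). XPA, a nucleotide excision repair protein, had an interaction of -0.90 ± 0.21 (adjusted p = 0.0346). SYT12, a synaptotagmin, was at 8.18 and 8.78 CPM in KO etoposide medium, 17.8 and 21.8 CPM in KO DMSO medium, 11.6 and 14.2 CPM in WT etoposide medium, and 15.4 and 14.1 CPM in WT DMSO medium, with an interaction of -1.03 ± 0.18 (adjusted p = 0.0102). SDPR, a caveolar coat protein, was higher in etoposide medium from both donors, less so with KO donors, with a KO effect of 0.49, a WT effect of 1.56 and an interaction of -1.06 ± 0.23 (adjusted p = 0.0248). The KO etoposide libraries were the lowest of the media for NTHL1 and SYT12. These 4 calls were lost without WT DMSO library A or B, WT etoposide library B or KO etoposide library A, and those of NTHL1, XPA and SDPR also without WT etoposide library A. The calls of XPA and SDPR were lost without either T0 library too, and that of SDPR without KO etoposide library B. The adjusted p over these omissions was 0.0532 to 0.203, and XPA was also lost with the length trend removed (adjusted p = 0.0637).

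Longer genes, by the length in the deposited table, had higher interactions. The Spearman correlation with length across genes was 0.37, and the median interaction was -0.11 among the 4546 shortest genes, 0.00 among the 4546 of middle length and 0.13 among the 4546 longest. Of the higher genes 14 were short by this division, 60 of middle length and 154 long, and of the lower genes 59, 34 and 8 were. Median length was 5608 bases among the higher genes and 2222 bases among the lower genes, against 3250 bases over all genes. Of 80 tested ribosomal protein genes 76 had a negative interaction and 0 were called higher (1.67% of all genes). RPL13 and RPL37 were called lower (0.741% of all genes). At an unadjusted p under 0.05 with edgeR there were 38 of the 80. DESeq2 called 14 of them, limma-voom 2 and edgeR with library totals 7. The ribosomal protein genes had a median interaction of -0.22, a median KO effect of -0.06 and a median WT effect of 0.17. They held 4.37% and 4.65% of counts in KO etoposide medium, 4.56% and 4.69% in KO DMSO medium, 4.92% and 5.09% in WT etoposide medium, 4.27% and 4.38% in WT DMSO medium, and 5.11% and 5.01% at T0. The count-weighted mean gene length was 3914 and 3793 bases in KO etoposide libraries, 3837 and 3872 bases in KO DMSO libraries, 3811 and 3794 bases in WT etoposide libraries, and 3984 and 3918 bases in WT DMSO libraries. With a smooth length trend taken out of each library, 164 genes passed, 91 higher and 73 lower, and 126 of the 329 stayed called, 79 higher and 47 lower. The ribosomal protein median was then -0.05, that of the histones -0.23 and that of the early response factors 0.56. RPL13, among the 4546 longest genes at 4726 bases, then had -0.56 (adjusted p = 0.038). RPL37, at 1570 bases, had -0.48 (adjusted p = 0.0234). The part of RNA quality or library preparation in this trend was not tested. Counts of RPL13 and RPL37 are uncertain, since processed pseudogenes share their sequence, and their calls were lost without WT DMSO library A, WT etoposide library B or KO etoposide library A (adjusted p = 0.0505 to 0.228), that of RPL13 also without either T0 library, WT DMSO library B, WT etoposide library A or KO etoposide library B.

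**Figure D5:**
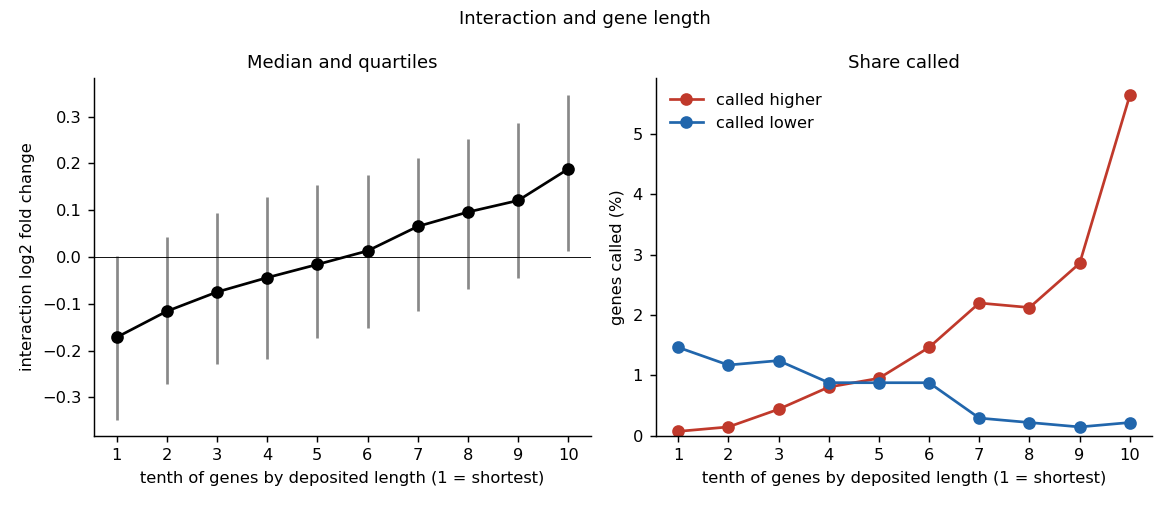
Left, median and quartiles of the interaction log2 fold change in each of 10 equal bins of genes by deposited length (1 is shortest); right, percent of genes called higher or lower in each bin. The median goes up along the bins, higher calls are most frequent among the longest genes and lower calls among the shortest.

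Of the 228 higher genes 177 had a promoter window in the RefSeq table and of the 101 lower genes 68, against 10070 of all 13638 tested and 36 of the 49 called genes that the rule names. The 5 motifs were searched on both strands of the 250 bases before the start. They were AP-1 (TGACTCA), CRE (TGACGTCA), the CArG box (CCWWWWWWGG), the NF-kB site (GGGRNWYYCC) and the EGR site (GCGTGGGCG). Here W is A or T, R is A or G, Y is C or T and N is any base. Only full matches were counted, so a window without a match may still hold a variant of a site. AP-1 was found in 3.95% of the higher, 1.47% of the lower and 2.77% of tested genes' windows, and in 4.16% of all windows in the table. CRE was found in 3.95%, 1.47%, 2.88% and 1.77% of these sets in the same order, and the NF-kB site in 7.91%, 4.41%, 6.08% and 5.05%. The CArG box was found in 1.13% of the higher windows and 0.983% of tested windows, and the EGR site in 2.26% and 1.25%; among the lower windows neither was found. With 7 higher genes holding an AP-1 match and 14 an NF-kB match, these shares rest on few genes. Among the 36 named genes, only TM4SF1, CXCL8, EGR1, IL11, PLAUR, PPP1R15A and JUND had a match, and every window printed here holds one. JUND, called lower, holds a CRE 200 to 193 bases before the start. A match is a description of letters and not of binding.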

How the data were processed

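RNA was measured in 10 libraries of U2OS recipients, 5 groups of 2. The authors deposited whole-number counts per gene symbol with a gene length column; per the submitters' processing notes the build was hg19 and DESeq2 was used, and for the aligner, annotation and strand setting: not given in the sources used here. As deposited, 51 symbols read as currency amounts, of which 50 were restored. No repair was made of symbols turned into dates. Depth was 16.8 M to 20.3 M counts per library.

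The deposited counts were fitted over all 10 libraries with edgeR 4.0.16 in R 4.3.3 (TMM scaling, quasi-likelihood F test, 5 residual degrees of freedom), for genes with a mean count of 20 or more, and p-values were adjusted by Benjamini-Hochberg over all 13638 genes at a threshold of 0.05. CPM used TMM library sizes, and log2 CPM, used for the spread between libraries and the length trend, a prior count of 2. Fold changes were those of the edgeR fit, and the SE was the fold change divided by the root of F. Alternatives used limma 3.58.1 (voom), DESeq2 1.42.0, other scalings and filters, and each library left out. The lists and the genes in them, like the comparison itself, were chosen with earlier results of these data known. The named genes were the 12 highest and 12 lowest called genes with at least 5 CPM in a conditioned group, the 4 members of each list with the smallest p (2 for the ribosomal protein, histone and ZNF lists), and CDKN1A and GDF15, with 1 item under the rule not reported here; others named were chosen after their values were seen. Libraries with the same letter did not deviate together (correlation -0.05 to 0.15), so the letter was not used as a pairing. Promoter sequences are from RefSeq on GRCh38.p14, and no coordinates of the hg19 counts were used. The procedure was tested on simulated data.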

Additional observations from a re-analysis of the deposited data

Results flagged for a closer look

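These results are listed because the etoposide medium effect with KO donors differed from that with WT donors by a test of the difference itself. That was so for 329 genes. The interaction (KO effect minus WT effect, log2) of the named genes with a higher effect was over 1 for FOSB (3.40), CXCL8 (2.83), EGR2 (2.06), EGR1 (2.05), PRDM1 (1.78), PTGS2 (1.71), FOS (1.68), TM4SF1 (1.46), FGD6 (1.46), PHLDA1 (1.44), KIAA0040 (1.13), ELL2 (1.09), CPEB4 (1.08), IL11 (1.07) and HBEGF (1.07). Between 0 and 1 it was highest to lowest for IL1R1 (0.76), PLAUR (0.71), PPP1R15A (0.71), SGK1 (0.64), NR1D1 (0.64), KLF10 (0.61), ZNF609 (0.59), IER3 (0.58), MMP14 (0.54), NDRG1 (0.54), ZNF318 (0.53), LIF (0.50), IL6ST (0.46) and EDEM1 (0.43).

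Named genes with a lower effect were SMAD6 (-1.08), SDPR (-1.06), SYT12 (-1.03), FZD2 (-1.02), CEMP1 (-0.98), NTHL1 (-0.93), EPB41L4A-AS1 (-0.91), XPA (-0.90), JDP2 (-0.81), CASC10 (-0.81), C1orf35 (-0.80), PIF1 (-0.80), SOCS3 (-0.73), NUPR1 (-0.66), RPL37 (-0.58), TP53I3 (-0.56), GADD45A (-0.55), RPL13 (-0.46), JUND (-0.46) and ID1 (-0.43). EPB41L4A-AS1 is an antisense RNA and CASC10, C1orf35 and CEMP1 are described here by value only; without a stated strand setting, reads of EPB41L4A-AS1 and of genes on the other strand cannot be told apart. The ZNF609 effect was -0.31 with KO donors and -0.90 with WT donors, and its call (adjusted p = 0.0127) was lost without WT DMSO library A or B, WT etoposide library B or KO etoposide library A (adjusted p = 0.0675 to 0.139), and with the length trend removed (0.39, adjusted p = 0.0538). With that trend removed the calls of ZNF318 (0.35, adjusted p = 0.0882), C1orf35 (-0.67, adjusted p = 0.0528), CEMP1 (-0.86, adjusted p = 0.0956) and EPB41L4A-AS1 (-0.78, adjusted p = 0.0952) were lost too. Over all alternatives, left-out libraries among them, CEMP1 lost its call in 13 of 18 and EPB41L4A-AS1 in 9 of 18. The call was lost in 6 of 18 for C1orf35, 6 of 19 for ZNF318 and 5 of 18 for CASC10. Groups held 2 libraries each, so no library could be tested as standing apart within its group.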

How the results depend on the processing

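The direction of the interaction did not turn for any called named gene under any setting, but calls were lost: of 49 called named genes 10 kept their call in every alternative that gave an adjusted p, and 39 lost it at least once. The number of genes called, 329 as reported, was 26 to 1766 when 1 library was left out (26 without WT DMSO library A, 1766 without KO DMSO library A); a fit with fewer libraries has fewer residual degrees of freedom, and why the KO DMSO omissions raised the count was not tested. It was 107 with only the 8 conditioned libraries (79 higher, 28 lower), 791 with no filter on low counts (467 higher, 324 lower) and 164 with the gene length trend removed (91 higher, 73 lower), an alternative added after seeing the data. For these settings the cause was not tested. It was 305 with RLE size factors, 332 with limma-voom, 326 with filterByExpr and 463 with DESeq2 (307 higher, 156 lower, 286 of the 329 among them). With library totals it was 310, with 49.7% higher against 69.3% as reported, and 255 of the 329 remained. The WT effect had 59.7% of its called genes higher with library totals, against 46.3%. With the replicate block (letter A or B) 353 genes were called, 309 of them shared; the letters share only a name. The KO effect gave 4098 to 5865 genes and the WT effect 3501 to 6333 over all settings. With 2 libraries a group, a gene of low count or an unsteady pair can miss the threshold, so a missing call does not show equal effects.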
